A study of Mus musculus with 3 samples.

Results

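Macrophages that carry Timd4 transcript were described in single cells of the mouse heart interstitium, the tissue around the heart muscle cells. A cell was taken as a macrophage where the mean natural log value of C1qa, C1qb, C1qc, Csf1r and Cd68 was at least 0.5 and above the means of 5 fibroblast genes and of 5 endothelial genes, in a cell of at least 1500 UMIs. A UMI is a molecular tag that counts 1 captured transcript. Macrophages whose mean of Folr2, F13a1, Cbr2 and Vsig4 was at least 1.0 are called Folr2-type here, the others Folr2-low. Folr2-type cells with at least 1 Timd4 UMI are the Timd4 macrophages. There were 319 Timd4 macrophages among 910 macrophages and 1857 cells of the Lin28-positive libraries, and among 5833 cells in all. These values chose the cells, so the levels of the chosen genes are a description and support nothing further.

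The hearts were digested with collagenase II and muscle cells were removed by a slow spin. The rest was sorted by flow cytometry on 2 proteins, the RNA-binding protein Lin28 and the stem cell factor receptor cKit. The 3 sorted groups were Lin28-/cKit-, Lin28+/cKit- and Lin28+/cKit+, with 1 droplet library (10x Chromium 3′) each. The labels and protocols say nothing of how many mice were used, nor of their age, sex, strain or treatment. The Lin28+/cKit- library had 681 cells and 7401174 UMIs, the Lin28+/cKit+ library 1176 cells and 10400648 UMIs, and the Lin28-/cKit- library 3976 cells and 34031955 UMIs. Each group was a single library without a replicate, so groups were not tested against each other and no p-value is given. Intervals in brackets are at 95% and take in the counting of UMIs or cells alone, leaving out the spread between cells, mice and libraries.

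Timd4 encodes TIM-4, a receptor on the macrophage surface that binds phosphatidylserine, the lipid that dying cells expose, and so helps to engulf them. In the mouse heart, macrophages with TIM-4, LYVE1 and FOLR2 are known as a resident population seeded before birth that maintains itself with little input from blood monocytes. Resident macrophages with CCR2 or with high MHC class II are replaced more from monocytes. Of the other genes of the rule, Folr2 encodes a folate receptor, F13a1 the A subunit of coagulation factor XIII, Cbr2 a carbonyl reductase and Vsig4 a receptor for complement fragments of C3.

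The sequence just before the start of the gene is shown for Timd4 and for a Folr2 window. Among the windows of the genes of the rule, these are the ones that held the element described below. F13a1, Cbr2 and Vsig4 define the cells as well, but their windows and a further Folr2 window are not shown. The windows are 250 bases from RefSeq on GRCm38.p6 (the mm10 build), printed 5′ to 3′ on the strand of the gene. Capitals mark the composite element of ETS and IRF factors such as PU.1 with IRF8, spelled GGAA, any 2 bases, GAAA, and searched on both strands.

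Timd4 chr11:46810549-46810798 (+): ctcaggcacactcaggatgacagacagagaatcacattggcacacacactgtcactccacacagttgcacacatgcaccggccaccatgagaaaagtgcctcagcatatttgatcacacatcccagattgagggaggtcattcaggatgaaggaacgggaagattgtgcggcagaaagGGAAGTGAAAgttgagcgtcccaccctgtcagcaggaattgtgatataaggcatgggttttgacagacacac
Folr2 chr7:101857191-101857440 (-): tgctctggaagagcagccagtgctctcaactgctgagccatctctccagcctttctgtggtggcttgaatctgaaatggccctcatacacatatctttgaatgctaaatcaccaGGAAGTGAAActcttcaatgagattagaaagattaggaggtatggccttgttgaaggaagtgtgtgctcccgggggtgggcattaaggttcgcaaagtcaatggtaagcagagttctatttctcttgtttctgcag

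The element began 72 bases before the start of Timd4 and 136 bases before this start of Folr2, with the same 10 letters in each. A further Folr2 window and those of Cbr2, F13a1 and Vsig4 did not hold it. It was in 2.30% of 32851 such windows over all genes. A match of letters is a description, not a bound site. In GENCODE vM21 on mm10, Timd4 lies on chromosome 11 from 46810800 to 46844332, Folr2 on chromosome 7 from 101839988 to 101857194, F13a1 on chromosome 13 from 36867178 to 37050244, Cbr2 on chromosome 11 from 120729489 to 120732114, and Vsig4 on chromosome X from 96247203 to 96293438. All 5 are protein-coding genes.

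Before the results, 3 facts of the libraries bear on them. First, every library held cells of both sexes, read from Xist, the RNA of the inactive X chromosome, and from the Y-linked genes Ddx3y, Eif2s3y, Kdm5d and Uty. Among Timd4 macrophages, 83 cells of the Lin28+/cKit- library and 106 of the Lin28+/cKit+ library had UMIs of Y-linked genes only, and 23 and 31 of Xist only. UMIs of both were in 19 of 134 (14.2%) and 26 of 185 (14.1%) of these barcodes. The share was 2 of 54 and 6 of 95 in Folr2-type macrophages without Timd4, and 2 of 98 and 5 of 344 in Folr2-low macrophages. The median depth of the Timd4 barcodes with transcripts of both sexes was 34170 and 25227 UMIs, against 17043 and 11424 UMIs for the others. Above 10000 UMIs they were 14.4% and 19.8% of the Timd4 macrophages but 1.67% and 2.48% of the Folr2-low macrophages. No doublets were removed, so counts are also given without these barcodes, a choice made after the data were seen. Any doublets of cells of the same sex would stay in those counts. Second, Timd4 macrophages were by median the deepest of the 3 macrophage sets, with a median of 18292.5 UMIs in the Lin28+/cKit- library and 12143 in the Lin28+/cKit+ library. Folr2-type cells without Timd4 had medians of 11419.5 and 10156 UMIs, and Folr2-low cells 11530.5 and 8954.5. Last, the 2 Lin28-positive libraries shared 1 cell barcode and the Lin28-/cKit- library shared 8 with the Lin28+/cKit+ library.

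**Figure D1:**
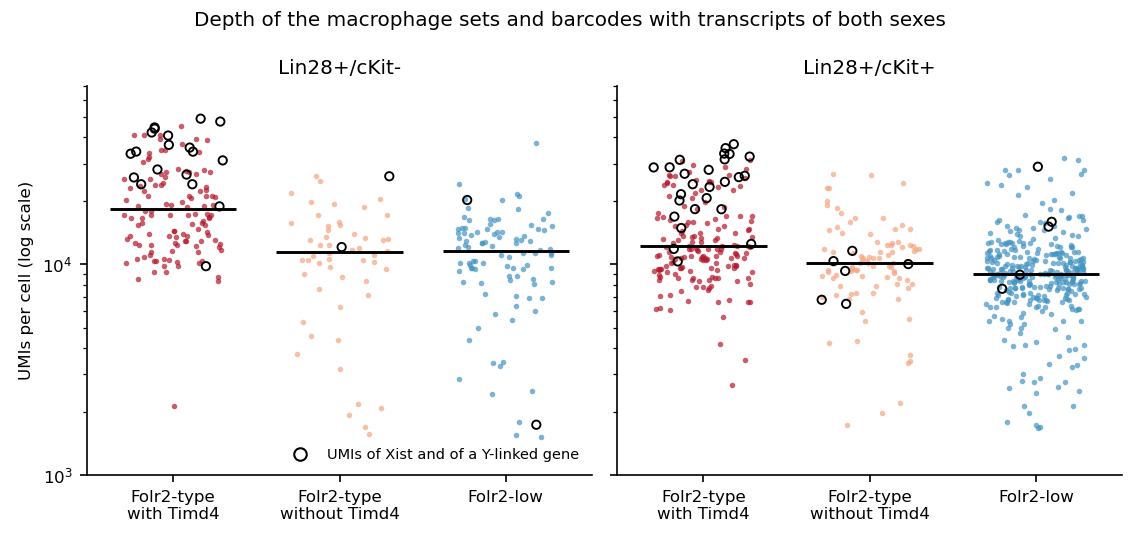
UMIs per cell on a log axis in the 3 macrophage sets of each Lin28-positive library. Each point is a cell, bars are medians, and open circles are barcodes with UMIs of Xist and of a Y-linked gene, which numbered 19 and 26 in the Timd4 macrophages and mostly lie above their medians of 18292.5 and 12143 UMIs.

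Timd4 macrophages were present in both Lin28-positive libraries and none was found in the Lin28-negative library, which held 15 macrophages. They made up 19.7% (16.8 to 22.9) of the cells of the Lin28+/cKit- library and 15.7% (13.7 to 17.9) of the Lin28+/cKit+ library. Of the macrophages alone they were 46.9% (41.0 to 52.8, 134 of 286) in the Lin28+/cKit- library and 29.6% (26.1 to 33.4, 185 of 624) in the Lin28+/cKit+ library. Folr2-type macrophages as a whole were 65.7% (59.9 to 71.2) and 44.9% (40.9 to 48.9) of the macrophages. Without thinning the intervals of the 2 libraries did not overlap for either class. After each macrophage was thinned to 5000 UMIs, which left out 22 and 44 shallower cells, Folr2-type cells were 62.9% (56.7 to 68.7) and 43.1% (39.0 to 47.2), and those with Timd4 25.4% (20.2 to 31.1) and 18.8% (15.7 to 22.2). At this depth the intervals lay apart for Folr2-type cells and overlapped for those with Timd4, as they did at 1500 UMIs, with 9.44% (6.31 to 13.4) and 4.65% (3.13 to 6.61). Without barcodes holding transcripts of both sexes Timd4 macrophages were 43.7% and 27.1% of the macrophages. The sort selected on Lin28 and cKit and can itself set such shares.

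Timd4 was a low-copy transcript in these cells. The median was 3 UMIs per cell in the Lin28+/cKit- library, with a highest value of 12, and 2 UMIs per cell in the Lin28+/cKit+ library, with a highest value of 8. At least 3 UMIs were found in 76 of 134 and in 62 of 185 cells. Over the Timd4 macrophages it stood at 168.7 and 151.7 CPM (UMIs of the gene per 1000000 UMIs, both summed over the cells), with a ratio of the Lin28+/cKit+ to the Lin28+/cKit- library of 0.900 (0.787 to 1.03). Over all Folr2-type macrophages, whether or not they held it, Timd4 stood at 138 and 111 CPM, a ratio of 0.803 (0.702 to 0.917).

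Whether a Folr2-type macrophage showed Timd4 followed its depth. A Timd4 UMI was found in 71.3% (64.2 to 77.6) of Folr2-type macrophages of the Lin28+/cKit- library and in 66.1% (60.2 to 71.6) of the Lin28+/cKit+ library. In cells of 1500 to 5000 UMIs the share was 1 of 10 in the Lin28+/cKit- library and 3 of 11 in the Lin28+/cKit+ library. It was 92.2% and 90.0% in cells above 20000 UMIs. These shallowest classes hold few cells, and without them the share still went from 47.1% and 58.0% between 5000 and 10000 UMIs to those of the deepest cells. Over the same 4 classes the Timd4 level ranged from 72.9 to 147 CPM in the Lin28+/cKit- library and from 100.2 to 125 CPM in the Lin28+/cKit+ library, with no steady order in either. Thinned to 1500 UMIs, which left out no cell, the shares were 15.96% and 17.9%. A cell without a Timd4 UMI is therefore not shown to lack the transcript. Endothelial cells, which should lack Timd4, had a UMI in 0.769% and 0.670% of cells at median depths of 7832.5 and 5640 UMIs. Folr2-low macrophages had one in 22.4% and 13.1% of cells, at 30.1 and 19.4 CPM.

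**Figure D2:**
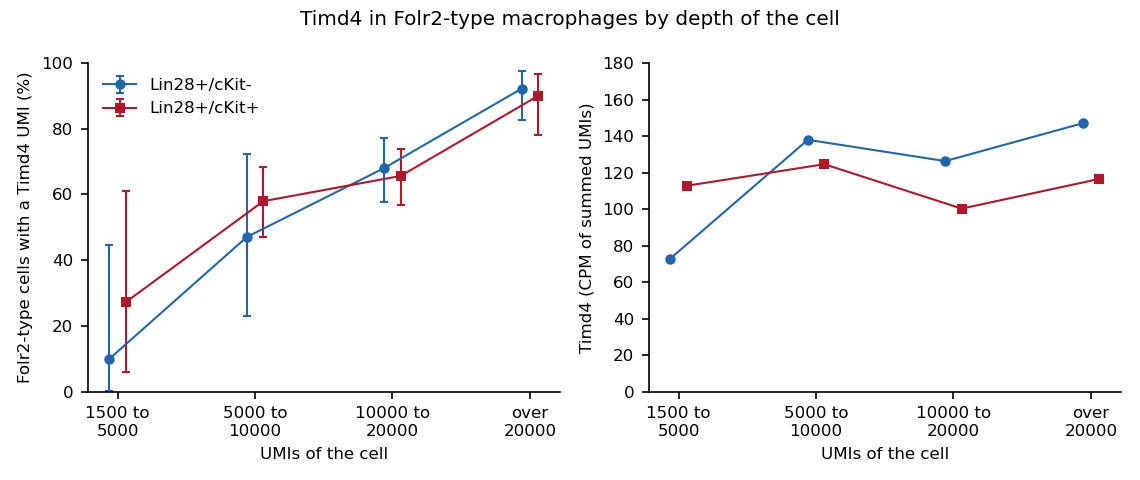
Left, share of Folr2-type macrophages with a Timd4 UMI by depth of the cell, with exact binomial 95% intervals; right, Timd4 level in the same classes in CPM of summed UMIs. The share climbs from 10.0% and 27.3% in the shallowest cells to 92.2% and 90.0% in the deepest, while the level stays between 72.9 and 147 CPM.

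The macrophage identity of the cells was checked on 5 macrophage markers that the rule did not use, all detected in both libraries. Mrc1, the mannose receptor, stood at 1233 and 1035 CPM, and Adgre1, which encodes F4/80, at 225.6 and 200.2 CPM. Aif1 stood at 414.5 and 442.2 CPM, Ms4a7 at 259.6 and 234.1 CPM, and the Fc receptor gene Fcgr1 at 87.0 and 96.1 CPM. Among 8 resident macrophage markers outside the rule, all had UMIs, with a summed level of 4980 and 4687 CPM, led by the platelet factor gene Pf4. The summed level was 4501 and 4694 CPM in Folr2-type cells without Timd4 and 2612 and 2839 CPM in Folr2-low macrophages. In endothelial cells it was 492 and 463 CPM. Endothelial cells had UMIs of all these markers too, so detection by itself could not go against the name. Of the first 5 markers Mrc1 was highest there, at 22.4 and 23.7 CPM. The levels did not go against the name macrophage, but they lay close to those of Folr2-type cells without Timd4.

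Defining markers of other cells were absent or low. The mast cell markers Cpa3, Kit, Mcpt4, Tpsb2, Cma1 and Ms4a2 all had 0 UMIs in both libraries, so that no transcript of Kit was found in Timd4 macrophages of the library sorted as cKit-positive. With 2767810 UMIs read there, 0 UMIs of Kit leave up to 3 UMIs within counting error. The T and NK cell markers had 1 UMI in the Lin28+/cKit- library and 0 in the Lin28+/cKit+ library. Of 7 monocyte markers, Ly6c2, Plac8 and Chil3 were at 0 in both libraries, and Ccr2, the receptor of recruited monocytes, held 106 of 107 and 101 of 102 UMIs, in 26.1% and 16.8% of cells at 37.5 and 36.5 CPM. All 10 endothelial markers had UMIs, at a summed 401.4 and 465.7 CPM, of which Fabp4 gave 863 of 1135 and 928 of 1289 UMIs. An endothelial mean of at least 0.5 was reached by 3 and 2 Timd4 macrophages, and a fibroblast mean of that size by none. Cardiomyocyte markers had a summed 224.9 and 253.6 CPM and B cell markers 219.3 and 222.6 CPM, led by Myl2 and Ighm. Cd79a and Ms4a1, which define B cells, were at 0. The part of free RNA in these values was not tested.

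The Timd4 macrophages of the Lin28+/cKit+ library were compared with those of the Lin28+/cKit- library, the one contrast that the rule did not use. Most genes were close. Of 9377 genes that reached 20 UMIs over both libraries, 176 (1.88%) were higher and 362 (3.86%) lower in the Lin28+/cKit+ library, where a call needs a ratio of at least 1.5 and an interval that excludes 1. With TMM scaling, which centres the bulk of the genes, 239 were higher and 247 lower, so the surplus of lower genes rests on the scaling. Without barcodes holding transcripts of both sexes, 160 were higher and 382 lower, of which 106 and 219 were among the first calls. Thinned to 1500 UMIs, which left 3064 genes with enough UMIs, 4 and 18 of the first calls were made again.

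Of the 5 genes of the rule, Cbr2 alone was called. It stood at 630.6 CPM in the Lin28+/cKit- library and 390.6 CPM in the Lin28+/cKit+ library, a ratio of 0.619 (0.574 to 0.668). In the 23 and 31 cells with Xist only its ratio was 0.737 (0.603 to 0.899), short of a call. Folr2 stood at 705.2 and 661.5 CPM, F13a1 at 1443 and 1160 CPM, and Vsig4 at 94.1 and 77.3 CPM, with ratios of 0.938, 0.804 and 0.822. Vsig4 met the rule for a call in both sets of cells with transcripts of 1 sex, with 0.638 (0.492 to 0.823) in cells with Y-linked transcripts only and 0.355 (0.203 to 0.597) in those with Xist only. Lyve1, a hyaluronan receptor, stood at 533.7 and 485.9 CPM and Fcna, a ficolin that binds microbial sugars, at 143.9 and 108.0 CPM. The haemoglobin scavenger receptor Cd163 was lower, at 226.7 and 149.6 CPM, with a ratio of 0.660 (0.582 to 0.748) that TMM scaling moved above the limit for a call. The cell cycle inhibitor Cdkn1a, which responds to p53, stood at 503.9 and 584.9 CPM, a ratio of 1.16 (1.08 to 1.247).

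Tcim, a small regulator of transcription, was the gene with the largest ratio among higher genes of at least 100 CPM. It stood at 129.8 CPM in the Lin28+/cKit- library and 283.6 CPM in the Lin28+/cKit+ library, a ratio of 2.19 (1.93 to 2.48). The ratio was 2.22 (1.88 to 2.61) in cells with Y-linked transcripts only and 1.22 (0.871 to 1.72), not called, in those with Xist only, which held 68 and 78 UMIs. The small heat shock protein gene Hspb1 was at 222.4 and 367.1 CPM, with a ratio of 1.65 (1.49 to 1.83) that came to 1.26 (1.12 to 1.43) without barcodes holding transcripts of both sexes and to 1.01 (0.878 to 1.16) in cells with Y-linked transcripts only. In the cells with Xist only it was 4.84 (2.96 to 8.30), from 20 and 91 UMIs. The interferon-induced gene Isg15 was at 107.2 and 163.3 CPM, where 1 cell held 129 of the 452 UMIs of the Lin28+/cKit+ library. In cells with at least 2 Timd4 UMIs its log2 ratio was -0.20.

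Among lower genes, Retnla, which encodes the secreted protein RELMα of alternatively activated macrophages, stood at 1219 CPM in the Lin28+/cKit- library and 798.1 CPM in the Lin28+/cKit+ library. Its ratio of 0.655 (0.621 to 0.691) was 0.683, not called, in cells with Y-linked transcripts only and 0.201 in those with Xist only. Id3, an inhibitor of helix-loop-helix transcription factors, was at 282.6 and 126.1 CPM, a ratio of 0.446 (0.392 to 0.507), with 112 of 799 UMIs in 1 cell of the Lin28+/cKit- library. Rnaset2a was at 288.9 and 127.5 CPM, but it has a near-identical neighbour, Rnaset2b, and reads of the pair are hard to assign. Ftl1-ps1, a copy of the ferritin light chain gene, has the same limit. Ptafr, the receptor for platelet-activating factor, was at 157.0 and 91.4 CPM. AC160336.1, a long non-coding RNA, and Myadm, Ly6e and the tubulin gene Tuba1b were also lower, with ratios from 0.587 to 0.650.

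These 13 genes, named from the Timd4 macrophages, were then read in other cells of the same 2 libraries. In Folr2-low macrophages 13 of 13 leaned the same way, and 6 met the rule for a call. Of all 9013 genes measured there, 1.56% were called higher and 6.04% lower in the Lin28+/cKit+ library, and 41.7% had a ratio above 1. In Folr2-type macrophages without Timd4 it was 11 of 13 with 7 called, where 2.51% of 6623 genes were called higher and 4.08% lower. In endothelial cells it was 11 of 12 measured with 5 called, where 3.22% of 9976 genes were called higher and 3.93% lower. Ratios above 1 were found for 47.8% and 48.0% of all genes in these 2 sets. Rnaset2a, Ftl1-ps1, AC160336.1 and Myadm were lower in all 4, endothelial cells included. The ratio of AC160336.1 was 0.408 (0.378 to 0.441) in endothelial cells and 0.587 (0.524 to 0.658) in Timd4 macrophages. Tcim was called in the Folr2-type cells, with 2.17 (1.70 to 2.80) where Timd4 was not detected, but stood at 1.15 (0.968 to 1.38) in Folr2-low macrophages and 1.14 (1.07 to 1.22) in endothelial cells. Id3 stood at 1.01 (0.967 to 1.05) in endothelial cells, and Hspb1 at 1.12 (1.09 to 1.16). Retnla had a ratio of 1.15 (0.957 to 1.38) in Folr2-type cells without Timd4, above 1 where the Timd4 macrophages were below it. For every gene, the sort and the library cannot be told apart.

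**Figure D3:**
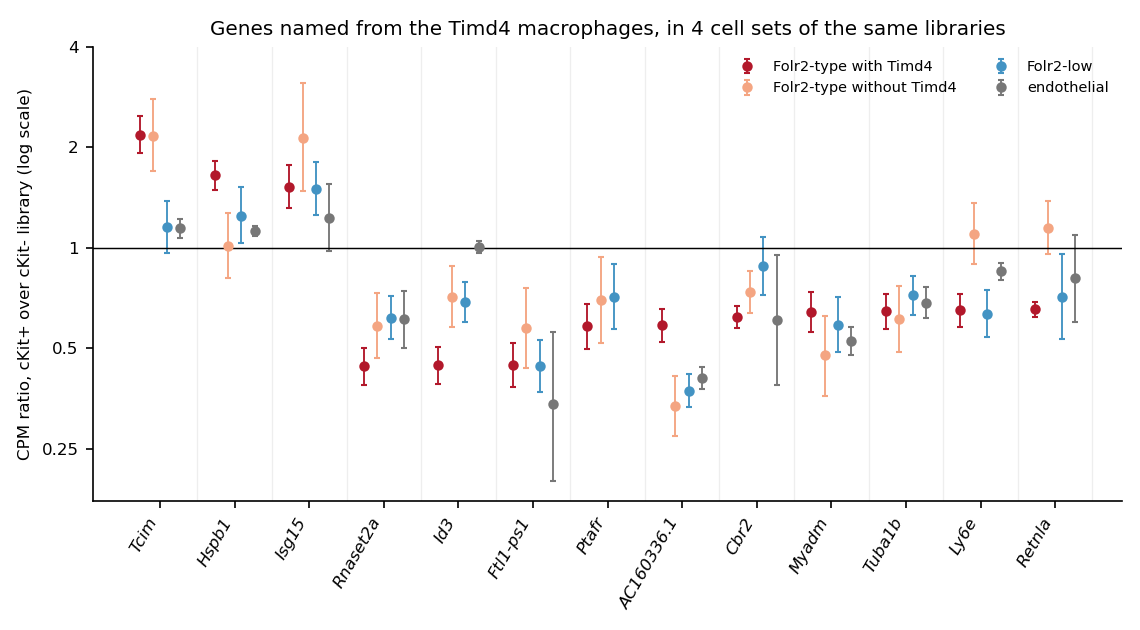
Ratio of CPM in the Lin28+/cKit+ library to the Lin28+/cKit- library on a log axis, for 13 genes named from the Timd4 macrophages, in these and 3 other cell sets (points, with 95% counting intervals; sets with under 20 UMIs of a gene are left out). Rnaset2a, Ftl1-ps1, AC160336.1 and Myadm lie below 1 in all 4 sets.

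By their medians, the gene lists moved little between the libraries. The median log2 ratio over all genes measured was -0.06, and no list of the 21 had more than 5 members called in a direction. The lists held 7 to 26 measured genes, and of all genes 1.88% were called higher and 3.86% lower. The largest shares of higher genes were in the lists for recruited monocytes, with 2 of 7 (Fn1 and Lyz1), and for interferon, with 5 of 22. None of 8 genes of MHC class II presentation, 13 complement genes, 10 genes on the Fc receptor list or 22 lysosome genes was called. Nor was any of 13 growth factor genes or 22 nuclear genes of oxidative phosphorylation. The median log2 ratios of these lists were 0.14, -0.26, -0.02, -0.07, -0.19 and 0.05. Of 21 scavenger and lectin receptors, none was higher and 4 were lower, namely Cd209d, Scarb1, Cd209g and Cd163, with a median of -0.25. Cd209g stood at 30.1 CPM in the Lin28+/cKit- library and 17.0 CPM in the Lin28+/cKit+ library, and Scarb1, a lipoprotein receptor, at 17.7 and 9.39 CPM. Of 17 genes for phosphatidylserine receptors and engulfment, the list to which Timd4 belongs, Elmo1 and Pros1 were lower, at 57.6 and 37.6 CPM and at 57.6 and 37.9 CPM. The receptor kinases Mertk and Axl were not called, at 109 and 91.0 CPM and at 146 and 113 CPM.

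The interferon list had 5 of 22 members higher and 2 lower. The level of Rsad2 was 3.18 CPM in the Lin28+/cKit- library and 48.8 CPM in the Lin28+/cKit+ library, but 116 of its 135 UMIs there lay in 1 cell, as did 47 of 55 for Ifit3. Of 19 chemokine genes, Ccl8 and Cxcl13 were lower. For Cxcl13, 57 of 59 UMIs of the Lin28+/cKit- library were in 1 cell, and for Ccl8 36 of 120. Ccl8 had a ratio of 0.357 (0.234 to 0.534) in cells with Y-linked transcripts only but 3.41 (1.19 to 11.9) in those with Xist only, from 5 and 16 UMIs. Of 23 inflammatory genes Il18 was higher, at 18.7 and 28.9 CPM, and Il10 lower, at 8.49 and 3.25 CPM. Of 17 senescence and arrest genes Cdkn2a and Cdkn1c were higher and Ccng1 lower, with Cdkn2a at 8 and 25 UMIs in all and Cdkn1c at 16.6 and 26.0 CPM. Of 14 measured proliferation genes, Hist1h2ap and Birc5 were higher and Mcm5 and Mcm3 lower. For Hist1h2ap, 43 of the 58 UMIs of the Lin28+/cKit+ library were in 1 cell. At least 5 UMIs of mitotic genes were found in 9 of 134 and 8 of 185 Timd4 macrophages. Endothelial markers had 3 of 10 higher, Cldn5, Kdr and Egfl7, with Egfl7 at 18.04 and 30.7 CPM. Their part in the other differences was not tested.

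Within each library, Timd4 macrophages were set beside Folr2-type macrophages without a Timd4 UMI, 54 in the Lin28+/cKit- library and 95 in the Lin28+/cKit+ library. The 2 sets were close, and the genes that differed in both libraries were few. Of 8247 genes measured in both libraries, 20 (0.243%) were higher and 6 (0.0728%) lower in both. In 1 library at a time 229 and 195 were higher, so that the 20 were 8.73% and 10.3% of these, and the 6 lower genes were 3.51% of 171 and 4.196% of 143. Since Timd4 detection followed depth and the rule split the cells on it, these counts describe the split. Without barcodes holding transcripts of both sexes 23 were higher and 6 lower, 16 and 4 of them among the first calls. With the cells without Timd4 weighted to the depth of those with it, 45 were higher and 4 lower. Of these, 13 and 2 were among the first calls.

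Retnla stood at 1219 CPM in Timd4 macrophages and 288.0 CPM in Folr2-type cells without Timd4 in the Lin28+/cKit- library, and at 798.1 and 331.0 CPM in the Lin28+/cKit+ library. The ratios were 4.23 (3.65 to 4.94) and 2.41 (2.15 to 2.71). Fcna stood at 143.9 and 33.2 CPM in the Lin28+/cKit- library and at 108.0 and 41.9 CPM in the Lin28+/cKit+ library. The stress-response genes Nupr1 and Gdf15 were the other named genes that were higher. Nupr1 was at 115.3 against 63.3 CPM in the Lin28+/cKit- library and at 137.3 against 89.6 CPM in the Lin28+/cKit+ library. Mmp9, a secreted protease, was lower, at 94.1 against 150.3 CPM and at 56.4 against 120.7 CPM. Without the cell with the most UMIs of each gene, none of the 6 lower genes, Mmp9 among them, was called in both libraries. Of these, 5 kept their direction. Within the Timd4 macrophages Retnla also differed with the number of Timd4 UMIs, which itself goes with depth. It was 223.0 and 338.2 CPM in cells with 1 Timd4 UMI and 1489 and 1147 CPM in cells with at least 3. In the Lin28+/cKit- library 97 of the 129 Retnla UMIs of the cells with 1 Timd4 UMI lay in 1 cell. With cells thinned to 5000 UMIs, 133 and 182 of them, Spearman's rho between Timd4 and Retnla was 0.06 and 0.16.

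Genes of the Folr2 type differed less. Folr2 had ratios of 1.53 (1.35 to 1.73) in the Lin28+/cKit- library and 1.35 (1.22 to 1.49) in the Lin28+/cKit+ library, F13a1 1.37 and 1.24, Cbr2 1.14 and 0.958, and Lyve1 1.52 and 1.46. Vsig4 stood at 94.1 and 98.1 CPM in the Lin28+/cKit- library and at 77.3 and 56.5 CPM in the Lin28+/cKit+ library. Cd163 had ratios of 1.13 (0.931 to 1.38) and 0.979 (0.812 to 1.18). Of 8 genes of MHC class II presentation none was called in both libraries. H2-Ab1 was lower in the Lin28+/cKit- library, with 0.620 (0.587 to 0.654), and stood at 0.915 (0.870 to 0.962) in the Lin28+/cKit+ library.

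Against Folr2-low macrophages, 98 in the Lin28+/cKit- library and 344 in the Lin28+/cKit+ library, the differences were many. Of 8787 genes, 300 (3.41%) were higher and 167 (1.90%) lower in Timd4 macrophages of both libraries. The 300 were 44.7% and 40.0% of those called in each library, and the 167 were 41.1% and 51.1%. Without barcodes holding transcripts of both sexes 288 were higher and 166 lower. In the Lin28+/cKit+ library by itself the genes called were 779 higher and 403 lower by totals, and 561 and 516 with TMM scaling. The rule split the cells on Folr2-type genes, so genes that go with them had to differ, and the values are given as a portrait of the Timd4 macrophages.

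The 10 named genes with the highest ratios were Retnla, Fcna, Lyve1, Folr2, Timd4, Colec12, Ltc4s, F13a1, Cbr2 and Wfdc17, of which the rule used 4. Retnla had ratios of 19.4 (15.4 to 24.9) and 17.8 (15.1 to 21.2). Ltc4s, the enzyme that makes leukotriene C4, stood at 337.4 against 50.4 CPM and at 321.6 against 71.3 CPM, and the secreted protein gene Wfdc17 at 978.5 against 280.2 CPM and at 1162 against 326.5 CPM. Several surface receptors of resident macrophages were higher. Lyve1 stood at 533.7 CPM in Timd4 macrophages and 52.2 CPM in Folr2-low macrophages of the Lin28+/cKit- library, and at 485.9 and 41.7 CPM in the Lin28+/cKit+ library. Of 20 scavenger and lectin receptors 8 were higher in both libraries and none lower, with medians of 0.73 and 0.44 on the log2 scale against 0.09 and 0.11 for all genes. Besides Lyve1 and Fcna they included the scavenger collectin Colec12, at 156.7 against 27.4 CPM and at 140.9 against 28.3 CPM. Cd209f, a lectin related to DC-SIGN, was at 68.3 against 2.65 CPM and at 57.4 against 3.88 CPM, with UMIs in 15.7% and 14.1% of Timd4 macrophages. Of 17 genes for phosphatidylserine receptors and engulfment, 4 were higher. Beside Timd4 and Stab1 these were Gas6 and Pros1, the bridging ligands that link phosphatidylserine to the receptor kinases. Gas6 stood at 464.0 against 205.1 CPM and at 421.6 against 193.8 CPM, while Mertk was at 109 against 108 CPM and at 91.0 against 69.5 CPM.

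Iron and haem genes were higher in 7 of 15, with none lower. The iron exporter Slc40a1 (ferroportin) was at 88.1 against 36.2 CPM in the Lin28+/cKit- library and at 80.2 against 33.4 CPM in the Lin28+/cKit+ library, and the transferrin receptor Tfrc was at 21.9 against 7.07 CPM and at 16.3 against 3.58 CPM. Complement genes were higher in 5 of 12, among them Cfp, which encodes properdin, an activator of the alternative pathway, at 176 against 68.1 CPM and at 148 against 59.0 CPM. Of 10 genes on the Fc receptor list Ms4a4a, Fcgrt and Fcrls were higher and Fcgr4 lower. Ms4a4a encodes a membrane protein of another family and is not itself an Fc receptor. Fcgrt, the neonatal Fc receptor that recycles IgG, stood at 555.9 against 267.0 CPM and at 542.3 against 265.1 CPM. Growth factor genes were higher in 5 of 13. Igf1 stood at 123.8 against 46.9 CPM and at 107.7 against 36.1 CPM, and Pdgfc at 13.8 against 4.42 CPM and at 16.6 against 2.68 CPM. The chemokine genes split. Ccl24, Ccl6, Ccl9 and Ccl8 and the receptor gene Ccr1 were higher, with Ccl24 at 415 against 98.1 CPM and at 427 against 135 CPM. Ccl3, Ccl4 and Ccl5 were lower, with Ccl4 at 3594 against 6991 CPM and at 4406 against 9719 CPM.

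Fewer differences were seen in the lists of basic function and of transcription factors. Of 22 transcription factor genes Tfec and Klf4 were higher and Nr4a1 and Id2 lower. Klf4 stood at 889.1 against 556.9 CPM and at 883.0 against 495.0 CPM, and Id2, an inhibitor of helix-loop-helix factors as Id3 is, at 1084 against 1628 CPM and at 874.7 against 1502 CPM. The lysosomal protease gene Ctsd and the hexosaminidase gene Hexa were higher among 21 lysosome genes, with Hexa at 430.7 against 261.7 CPM and at 448.0 against 294.3 CPM. Pltp, which transfers phospholipids between lipoproteins, was higher and Fabp4 lower among 19 lipid genes. Fabp4, a fatty acid carrier, is also an endothelial marker, and of 10 such markers Esam, Pecam1 and Fabp4 were lower in both libraries and none higher, with medians of -1.09 and -0.67. Their summed level was 401.4 CPM in Timd4 macrophages and 925.6 CPM in Folr2-low macrophages of the Lin28+/cKit- library, and 465.7 and 763.1 CPM in the Lin28+/cKit+ library. The pericyte marker Rgs5 was lower as well, at 7.07 against 129.1 CPM and at 3.97 against 9.54 CPM. The part of these markers in the other differences was not tested. None of 22 nuclear or 13 mitochondrial genes of oxidative phosphorylation was called in both libraries.

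Antigen presentation was the list with the largest share of lower genes among the 21, with 7 of 8 genes of MHC class II lower in both libraries and medians of -1.42 and -1.17. H2-Ab1 stood at 1774 CPM in Timd4 macrophages and 5160 CPM in Folr2-low macrophages of the Lin28+/cKit- library, and at 1931 and 5114 CPM in the Lin28+/cKit+ library. Ciita, the factor that switches these genes on, was at 40.0 against 75.1 CPM and at 43.0 against 87.1 CPM. Of 23 inflammatory genes 3 were lower, Il1b, Il1a and Ptgs2. Il1b stood at 178.6 against 846.9 CPM and at 171.6 against 905.1 CPM, ratios of 0.211 and 0.190. The signalling adaptor gene Cytip was lower, at 37.1 against 126.4 CPM and at 33.2 against 129.1 CPM, and the tetraspanin gene Cd9 at 65.8 against 171.5 CPM and at 83.1 against 191.8 CPM. Among proliferation genes 9 of 17 were lower, with Mki67 at 9.19 against 77.8 CPM and at 11.2 against 34.0 CPM. In the Lin28+/cKit- library 51 of the 88 Mki67 UMIs of Folr2-low macrophages were in 1 cell. The share of cells with at least 5 UMIs of mitotic genes was close, at 6.72% of Timd4 macrophages and 6.12% of Folr2-low macrophages in the Lin28+/cKit- library and at 4.32% and 4.65% in the Lin28+/cKit+ library. Of the mitotic UMIs of Folr2-low macrophages, 1 cell held 278 of 467 and 315 of 1449. Of 5 genes measured from the list for recruited monocytes, S100a4, S100a6 and Ifitm3 were higher and Cd52 lower. The list had medians of 0.81 and 0.87 on the log2 scale, against 0.09 and 0.11 for all genes. Cd52 stood at 89.5 against 358.9 CPM and at 112.7 against 356.1 CPM. Ccr2 had ratios of 0.487 (0.364 to 0.655) and 0.672 (0.522 to 0.862), which met the rule for a call in the Lin28+/cKit- library alone. The difference between the libraries was not tested. Against Folr2-type cells without Timd4, Ccr2 leaned the other way, at 37.5 against 22.2 CPM and at 36.5 against 22.4 CPM. There a call in both libraries was not reached.

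**Figure D4:**
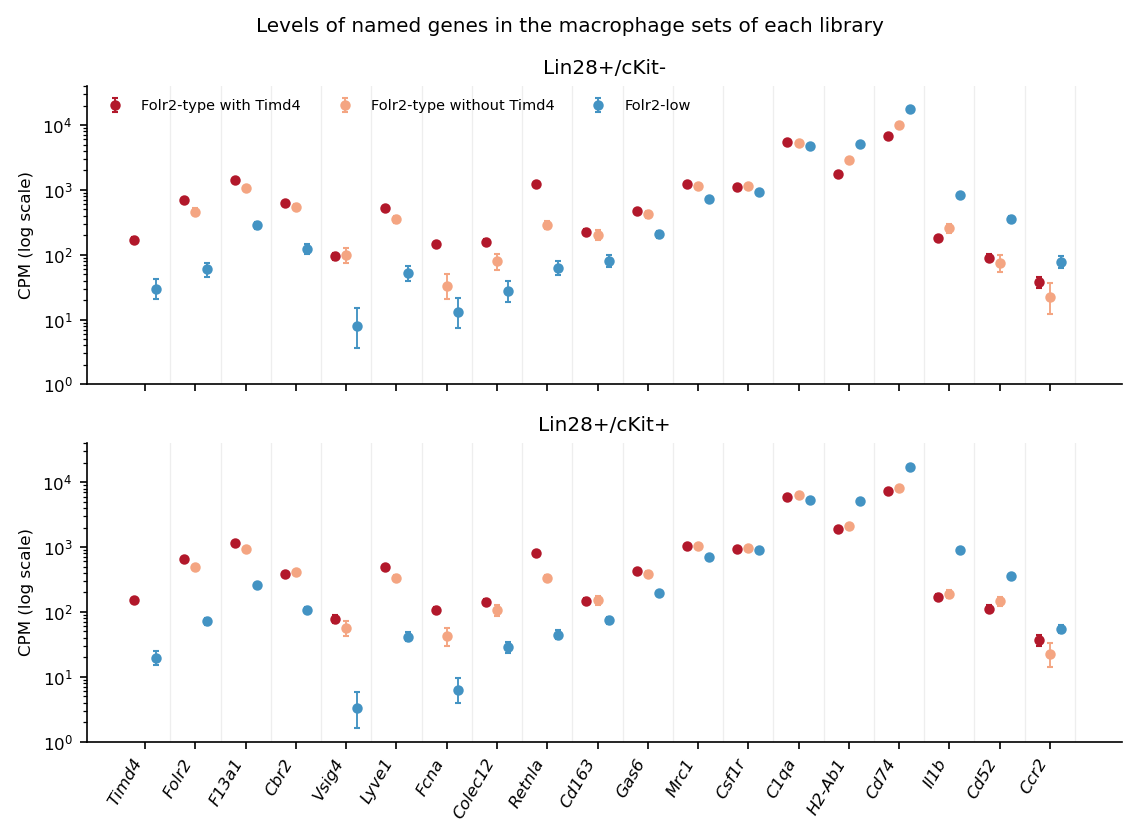
Levels in CPM on a log axis of 19 genes in the 3 macrophage sets of the Lin28+/cKit- library (top) and the Lin28+/cKit+ library (bottom), with 95% Poisson intervals; a set with 0 UMIs has no point. Lyve1, Fcna and Retnla lie highest in Timd4 macrophages, and H2-Ab1, Cd74 and Il1b highest in Folr2-low macrophages, in both libraries.

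Timd4 macrophages also differed among themselves. Each cell was thinned to 1500 UMIs, and genes were ranked by the variance over the mean of their counts across cells. Of the 50 most variable genes of each library, 38 were shared. The 10 leading shared genes were the chemokine genes Cxcl2 and Ccl4, Retnla, the class II genes Cd74, H2-Aa and H2-Ab1, the lipid carrier gene Apoe, the lysozyme gene Lyz2 and the heat shock genes Hspa1a and Hspb1. Retnla had a variance over mean of 14.0 and 8.86. Its UMIs were in 59.7% and 55.1% of the cells, and the highest cell alone held 381 of 3446 UMIs in the Lin28+/cKit- library and 255 of 2209 in the Lin28+/cKit+ library. Per 10000 UMIs of the cell, Retnla had a median of 0.58 and 0.55 and a highest value of 204.1 and 156.9, so most of its level came from few cells. Cd74 had a median of 61.1 and 60.1 per 10000, and its quartiles were 7.96 and 112.1 in the Lin28+/cKit- library and 13.03 and 125.3 in the Lin28+/cKit+ library. The class II genes varied together over the cells thinned to 5000 UMIs, 133 and 182 in number, with Spearman's rho of 0.91 in both libraries for Cd74 and H2-Aa.

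The class II genes ran against some markers of the resident type within Timd4 macrophages and not others. At equal depth rho with Cd74 was -0.32 and -0.25 for Lyve1 and -0.29 and -0.20 for Fcna, neither of which the rule used. It was near 0 for Cd163, at 0.06 and -0.04, for Cd209g, at 0.08 and 0.03, and for Cd209f, at -0.08 and -0.09. Cells with a Vsig4 UMI, 36 and 46 in number, had H2-Aa at 1233 and 1669 CPM, and cells without one at 2685 and 2925 CPM. Cells with a Fcna UMI had H2-Aa at 1928 and 2096 CPM and those without at 2997 and 3230 CPM. For Retnla the direction differed between libraries, with 2372 against 1986 CPM in the Lin28+/cKit- library and 2165.7 against 3138.9 CPM in the Lin28+/cKit+ library. Cells with a UMI of these genes were deeper, with medians of 22637.5 against 17198.5 UMIs and 16448.5 against 11502 UMIs for Vsig4. For Cd209f the direction differed too, with H2-Aa at 2498 CPM in cells with it and 2171.5 CPM in those without in the Lin28+/cKit- library, and at 1364 and 2758 CPM in the Lin28+/cKit+ library. The rule chose the cells on Timd4, Folr2, F13a1, Cbr2 and Vsig4, so their rho is a description of the chosen set. With Cd74 it was -0.33 and -0.30 for Folr2, -0.21 and -0.31 for F13a1 and -0.26 and -0.21 for Vsig4. For Cbr2 it was -0.12 and -0.15, and for Timd4 -0.08 in both libraries. Cd209f and Cd209g went together, with rho of 0.54 and 0.50. In the Lin28+/cKit- library all 85 UMIs of Cd209g lay in the 21 cells that also held Cd209f. Cxcl2 and Hspa1a ran against each other, with rho of -0.43 and -0.31. The cells of a library share its processing, and genes are read from the same UMIs, so these values are a description.

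**Figure D5:**
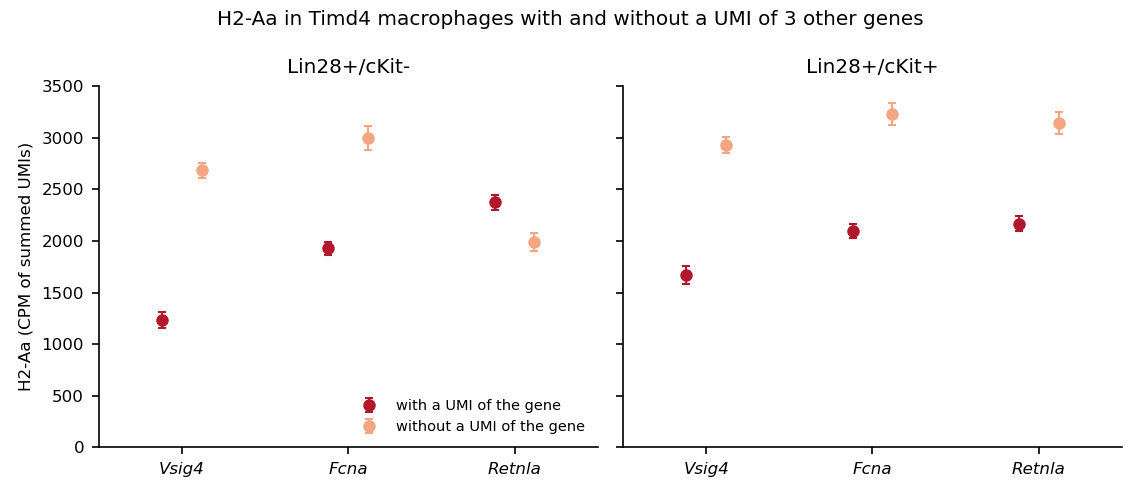
Level of H2-Aa in CPM of summed UMIs in Timd4 macrophages with and without a UMI of Vsig4, Fcna or Retnla, with 95% Poisson intervals, in the Lin28+/cKit- (left) and Lin28+/cKit+ (right) library. Cells with Vsig4 or Fcna lie below those without in both libraries, and for Retnla the order differs between the libraries.

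Few cells lay near the Folr2-type limit of 1.0. In the Lin28+/cKit- library 6 Timd4-positive macrophages had a mean of 1.0 to 1.1 and 4 a mean of 0.9 to 1.0, and in the Lin28+/cKit+ library 3 and 12. Just inside the limit Lyve1 stood at 201.3 CPM in the Lin28+/cKit- library and at 0 in the 3 cells of the Lin28+/cKit+ library. Just outside it stood at 81.7 and 169.9 CPM.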

How the data were processed

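Single-cell gene expression was measured in 3 sorted libraries (10x Chromium 3′ v3.1, Cell Ranger, mm10, Seurat 4.0.2, per the labels' protocols and the submitters' processing notes). The authors deposited natural log values of 1 plus UMIs scaled to 10000 per cell. Every value gave a whole UMI count within 0.01, so UMIs were recovered and summed per cell set, although counts had been assumed when the comparisons were planned. Levels are CPM of these sums, ratios have exact conditional binomial intervals and shares exact binomial (Clopper-Pearson) intervals. A gene was called at a ratio of at least 1.5 either way with an interval excluding 1, among genes with at least 20 UMIs in the pair. Against other macrophages it had to be called in both libraries. Named whatever their values were the 5 genes of the rule, 10 macrophage markers, Lyve1, Cd163, Fcna, Ccr2 and Cdkn1a. Added were, per comparison and direction, up to 10 called genes with the largest ratio, passing over mitochondrial, ribosomal protein, haemoglobin, Gm and Rik genes and any gene under 100 CPM or 50 UMIs where it was higher, then 2 to 4 genes of each list with the largest ratio and the 10 most variable genes. Other list members were named after their values were seen. A group at 0 UMIs was read with a floor of 3 UMIs. Cells were thinned to 1500 or 5000 UMIs where shares were compared. The calls were checked on simulated sums with counting error alone. These held no spread between cells or libraries, so the check cannot show how the calls fare under it. Python 3.11.15, numpy 2.4.6, pandas 2.3.3, scipy 1.17.1 and matplotlib 3.10.9 were used, and gene positions come from GENCODE vM21. The cells, the 21 gene lists and the 17 marker lists were chosen with earlier results of these data known. PCR copies are removed by UMIs. Alternatives tried were other scalings, depths, limits and subsets of cells. Some genes that the rule names are not reported here.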

Additional observations from a re-analysis of the deposited data

Results flagged for a closer look

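Some genes were called higher in Timd4 macrophages of one library and lower in those of the other, 17 against Folr2-type macrophages without Timd4 and 9 against Folr2-low macrophages. Of these, the 3 that belong to the gene lists used here or were named in the text are given, and the difference between libraries was not tested. For Ccl8, which encodes a monocyte-attracting chemokine, the log2 ratio of Timd4 macrophages to Folr2-type macrophages without Timd4 differed by -4.07 between the Lin28+/cKit+ and the Lin28+/cKit- library. It stood at 42.4 against 6.33 CPM in the Lin28+/cKit- library and at 21.3 against 53.5 CPM in the Lin28+/cKit+ library, where 44 of the 55 Ccl8 UMIs of the cells without Timd4 were in 1 cell. For Dusp2, a phosphatase that acts on MAP kinases, the difference was -1.95, from 105.0 against 42.7 CPM to 95.02 against 148.9 CPM. For Ifih1, a sensor of double-stranded RNA, the log2 ratio to Folr2-low macrophages differed by -1.53, from 40.0 against 23.9 CPM to 28.5 against 49.2 CPM.

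Timd4 transcript also appeared outside the compared cells. The Lin28-/cKit- library held 26 Timd4 UMIs in 11 cells, or 0.764 CPM (0.499 to 1.12), above the 3 UMIs that a count of 0 allows. Of these cells 1 was a macrophage, with 4 UMIs, and 10 had a macrophage mean under 0.5. At a median depth of 16101 UMIs, at least 3 UMIs of dendritic cell markers were in 8 of the 11, against 1.91% of the 3976 cells of that library. Fibroblast markers at that level were in 11 of 11 against 99.2%, endothelial markers in 10 against 69.7% and monocyte markers in 5 against 24.1%.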

How the results depend on the processing

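Counts of called genes are given as higher and lower in the Lin28+/cKit+ library, then in Timd4 macrophages against Folr2-type cells without Timd4, then against Folr2-low cells. Thinned to 1500 UMIs they were 48 and 100, 4 and 0, and 70 and 33. At a fold of 2 they were 63 and 128, 12 and 3, and 109 and 83. With at least 100 UMIs per gene they were 72 and 158, then 12 and 2, and 75 lower against Folr2-low cells. With Xist only they were 175 lower in the Lin28+/cKit+ library, then 4 and 10, and 71 and 53. Against Folr2-type cells without Timd4, counts were 41 and 19 at a Folr2-type mean of 0.75, 12 higher at the stricter limit tried, 45 higher with weighting to depth, 40 and 0 without the top cell of each gene, and 33 higher in cells with Y-linked transcripts only. Without cells over 20000 UMIs 97 were lower against Folr2-low cells. In these smaller sets fewer genes or UMIs were tested, and for the other moves the cause was not tested. The share of Folr2-type cells with Timd4 moved in the Lin28+/cKit- library to 15.96% and 38.2% thinned to 1500 and 5000 UMIs, 52.1% for at least 2 UMIs and 60.5% without cells over 20000 UMIs. In the Lin28+/cKit+ library it moved to 17.9% and 42.8%, to 57.4% at a mean of 0.75 and 72.4% at the stricter limit, and to 39.6% for at least 2 UMIs. Isg15 turned to a log2 ratio of -0.20 in cells with at least 2 Timd4 UMIs. Of the other single-gene values, 1469 kept their side of the rule for a call or, with the mean CPM over cells, moved little. Genes without a call could change direction among these. A further 63 lost and 22 gained a call and 8 moved. Of list medians, 327 moved by less than 0.15 on the log2 scale and 29 by more. The settings without barcodes of both sexes, by sex transcripts, without cells over 20000 UMIs and without the top cell were chosen after seeing the data. No paired analysis was possible because each group is 1 library. A median of 2 to 3 Timd4 UMIs per cell limits which cells can be told to hold it.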

Other observations

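Among the genes that were higher in Timd4 macrophages than in Folr2-type macrophages without Timd4 in both libraries was Ednrb, an endothelin receptor. It was chosen after its values were seen. Ednrb stood at 99.7 against 36.4 CPM in the Lin28+/cKit- library and at 87.4 against 26.3 CPM in the Lin28+/cKit+ library. The growth factor gene Areg was lower, at 36.8 against 99.7 CPM and at 28.5 against 58.4 CPM, with UMIs in 14.2% and 10.3% of Timd4 macrophages. Its call in both libraries was lost without the cell with the most UMIs of each gene.

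The lectin gene Cd209f marked a small share of the Timd4 macrophages. Cells with a Cd209f UMI numbered 21 in the Lin28+/cKit- library and 26 in the Lin28+/cKit+ library, and they held Cd209g at 139.2 and 101.8 CPM. Ccr2 had 11 UMIs and 1 UMI in these cells, or 18.01 (8.99 to 32.2) and 2.37 (0.0599 to 13.2) CPM, and stood at 42.9 and 42.6 CPM in the Timd4 macrophages without Cd209f. The median depth of the cells with Cd209f was 31066 and 13739 UMIs. At equal depth Spearman's rho between Cd209f and Ccr2 was 0.03 (133 cells) in the Lin28+/cKit- library and -0.06 (182 cells) in the Lin28+/cKit+ library. Cells with Cd209f are therefore not shown to be low in Ccr2 at equal depth.

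Of 13 mitochondrially encoded genes, mt-Atp8 and mt-Nd3 were lower in Timd4 macrophages of the Lin28+/cKit+ library. The level of mt-Nd3 was 1903 CPM in the Lin28+/cKit- library and 1189 CPM in the Lin28+/cKit+ library. In Folr2-low macrophages of the same libraries it was 1676 and 1140 CPM.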
